A study of Homo sapiens with 12 samples.

Results

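The genes described here lie next to each other on the long arm of chromosome 19, in band 19q13, from ZNF829 at the centromere-proximal end to CYP2S1 at the distal end. The block was defined by a list of 60 gene symbols that had stood out as a run of neighbours with lower expression in degron (++) than in degron (−) cells at 0 Gy and 48 h. Of the 60 genes, 56 reached an FPKM (fragments per kilobase of transcript, scaled to the number of mapped fragments, a level that is adjusted for gene length) of at least 1 in at least 2 libraries and were tested, out of 12946 tested genes and 23284 gene symbols in all. The 4 members below that level were ZNF793, ZNF540, ZNF781 and SPRED3, none of which reached 1 FPKM in any library. GMFG, just inside the filter, reached 1 FPKM in 3 libraries, and SPRED3, just outside it, reached 0.954 FPKM at most. The 0 Gy contrast chose the members, so its values are given as a description without a test, and the tests rest on the libraries irradiated with 4 Gy, which did not enter the choice but came from the same populations.

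The study used PANC-1, a line established from a human pancreatic ductal carcinoma, that carried a retroviral reporter in which the green fluorescent protein ZsGreen is fused to the degron of ornithine decarboxylase, so that a cell with low proteasome activity accumulates fluorescence. Degron (++) cells were the brighter part of cells that had been sorted repeatedly for the reporter, and degron (−) cells came from the infected line and were nearly all free of reporter signal. The culture medium held G418 for selection, and degron (++) cells were derived from the degron (−) line by sorting. RNA was sequenced from 12 libraries, with 2 libraries in each of 6 groups: degron (++) and degron (−) cells without irradiation at 48 h, with 4 Gy at 30 h and with 4 Gy at 48 h. The labels do not say from which event the hours were counted, and they call the degron (−) libraries both ZsGreen negative and d+. Nothing in the labels says that the 2 libraries of a group came from separate cultures, so each p-value measures the spread between these libraries, which may be technical.

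Chromosome 19 carries many of the human KRAB zinc finger genes, which encode DNA-binding repressors and stand in tandem clusters. The block begins in such a cluster and then runs through unrelated genes that every cell uses for transcription, translation and mitochondrial import, together with the kinase genes PAK4 and AKT2. The neighbourhood of AKT2 and PAK4 is known as an amplified region in PANC-1 and in some pancreatic tumours, and a gene present in more copies is often, but not always, more highly expressed. DNA copy number was not measured in these data.

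In every library the epithelial keratins that mark PANC-1 were abundant, with KRT8 between 1732 and 2981 FPKM, whereas the leukocyte gene CD3E and the fibroblast genes COL1A2 and DCN were at 0 and PTPRC, PECAM1 and CDH5 were at most 0.516 FPKM. Of the 13 markers, 3 were lower in every degron (++) library than in any degron (−) library, as most of the block was, and their part in the results was not tested. VIM, a PANC-1 marker like the keratins, ranged from 13.2 to 19.2 FPKM in degron (++) and 2376 to 2711 FPKM in degron (−) cells. The leukocyte marker CD68 was at 2.91 to 4.62 FPKM in degron (++) and 124 to 165 FPKM in degron (−) cells. The fibroblast marker COL1A1 was at 0.531 to 0.826 FPKM in degron (++) and 36.5 to 52.3 FPKM in degron (−) cells. VIM in degron (++) cells and CD68 and COL1A1 in degron (−) cells thus departed from the other markers of their class. Another 5 markers were higher in every degron (++) library, namely KRT7, KRT8, KRT18, KRT19 and, at low level, CDH5. KRT7 was at 1142 to 1437 FPKM in degron (++) and 133 to 273 FPKM in degron (−) cells. All 12 libraries were closest to a library of their own population. Summed over genes, the FPKM of degron (++) libraries came to 829654 to 916877 and that of degron (−) libraries to 707273 to 763064, and the number of reads behind it is unknown.

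Most of the block was lower in degron (++) cells. Across the tested members, the median level of a library was 5.14 to 5.56 FPKM in the 6 degron (++) libraries and 21.1 to 22.2 FPKM in the 6 degron (−) libraries, while the median over all tested genes was 10.5 to 10.7 and 11.2 to 11.4 FPKM. At 4 Gy and 30 h, 46 of the 56 members were called lower and 3 higher at an adjusted p under 0.05, where 40.8% of all tested genes were called lower and 38.3% higher. At 4 Gy and 48 h, 47 members were called lower and 3 higher, against 39.6% and 37.1% of all genes. The members ZNF829, ZNF568, ZNF585A, ZNF585B, ZNF569, ZNF570, ZFP30, PPP1R14A, FBXO17, GMFG and ZNF546 reached 1 FPKM only in degron (−) libraries. They passed the filter only through the population where they are high. Their calls as lower and the separation of their libraries were thus nearly fixed in advance and support nothing. The median log2 difference of the members, taken as degron (++) minus degron (−) on the log2(FPKM + 1) scale, was −1.91 at 30 h and −1.73 at 48 h, whereas over all tested genes it was −0.02 and −0.01. At 0 Gy, the contrast that chose the members, the median was −1.83, and 45 members were lower and 3 higher by the same limit, beside 40.2% and 37.6% of all tested genes, from which nothing is read. Over the 8 libraries at 4 Gy, which did not enter the choice of members, every degron (++) library lay below every degron (−) library in 46 of the 56 members and above in 4, where 40.1% and 37.6% of all tested genes did so. With the 0 Gy libraries that chose the members included, the counts were 45 and 3, beside 37.2% and 34.1% of all tested genes, and nothing is read from them. In these bulk RNA samples, fewer cells that express a gene and less RNA per cell cannot be told apart.

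**Figure D1:**
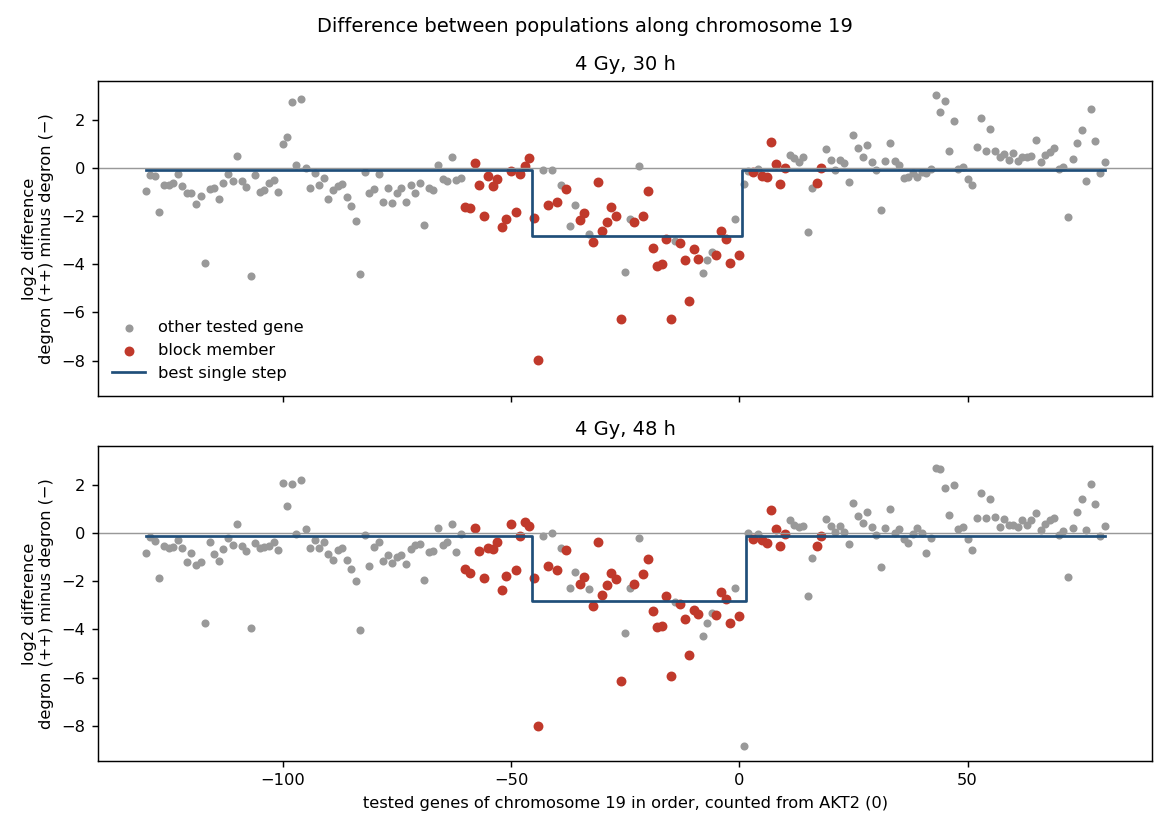
Log2 differences between degron (++) and degron (−) cells (y axis) for tested genes of chromosome 19 in their order, counted from AKT2 at 0 (x axis), at 4 Gy and 30 h (top) and at 4 Gy and 48 h (bottom). Red points are block members, grey points are other tested genes, and the blue line is the best profile with 1 level inside and 1 level outside a single stretch. At 30 h the stretch ran from DPF1 to AKT2 with a level of −2.80 inside and −0.07 outside, and at 48 h it also took in MIR641, the grey point at −8.87 beside AKT2.

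Gene by gene along the chromosome, the difference did not cover the block evenly. The profile with 1 level inside a stretch and 1 level outside it that left the least squared error began at DPF1 and ended at AKT2 at 30 h, and held 46 of the 927 tested genes placed on chromosome 19. At 0 Gy and at 4 Gy 48 h it had the same beginning and ended 1 gene later in the order of gene starts, at MIR641. The FPKM of this microRNA gene varied widely between libraries. The level inside was −2.84 at 0 Gy, −2.80 at 4 Gy 30 h and −2.81 at 4 Gy 48 h, and the level outside was between −0.06 and −0.09. Such a step accounted for 20.1%, 18.3% and 22.1% of the squared deviation along the chromosome in the same order, so most of the variation between genes was not described by it. The distal edge was sharp and lay at AKT2 or MIR641, the next gene in that order, under each setting tried. The proximal edge moved to ZNF829 or C19orf55 with a smaller pseudocount and to RYR1 with absolute errors.

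The edge after AKT2 separated close neighbours. AKT2 differed by −3.62 and −3.45 at 30 h and 48 h, C19orf47 by −0.11 and 0.01, and PLD3, which encodes a lysosomal exonuclease, by −0.14 and −0.23. PLD3 passed the test at 48 h (adjusted p = 0.0477) but not at 30 h (adjusted p = 0.207). At the other end, the 5 tested genes before ZNF829 were ZNF461, ZNF567, ZNF850, ZNF790 and ZNF345, with log2 differences from −0.51 to 0.46 at 30 h. Lower expression nevertheless reached beyond the proximal end, since among the 30 tested genes before ZNF829 26 were called lower at each time. The share of all tested genes called lower was 40.8% at 30 h and 39.6% at 48 h. These 30 genes had a median of −0.84 at 30 h and −0.78 at 48 h. Beyond the distal end the first 5 tested genes, AXL, HNRNPUL1, CCDC97, TGFB1 and B9D2, had differences from −0.06 to 0.80 at 30 h, and the 30 tested genes there had a median of 0.28 at 30 h and 0.22 at 48 h.

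The 56 tested members thus fell into 32 within the step, 15 before it and 9 after it. All 32 within the step were called lower at both times, and in all 32 the libraries of the populations did not overlap. As the step was placed on these same differences, these counts describe it and support nothing further. Of the 15 members before DPF1, 10 were called lower at each time, with 1 higher at 30 h and 2 at 48 h. Those called lower include ZNF829, ZNF568, ZNF585A, ZNF585B, ZNF569, ZNF570 and ZFP30, which passed the filter only through degron (−) libraries. Of the 9 members after AKT2, 4 were called lower and 2 higher at 30 h and 5 and 1 at 48 h, beside 40.8% and 39.6% of all tested genes lower and 38.3% and 37.1% higher. The median FPKM of the members within the step was 13.5 to 15.8 in degron (++) libraries, at percentile 55.9 to 59.9 of all tested genes, and 116 to 140 in degron (−) libraries, at percentile 93.9 to 95.1. The median of these members therefore lay near the middle of the range of all genes in degron (++) cells and near its top in degron (−) cells. Single members departed widely from it. In degron (++) cells PPP1R14A was at most 0.172 FPKM and EIF3K at 360 to 411 FPKM, and in degron (−) cells GMFG was at 0.741 to 2.56 FPKM.

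**Figure D2:**
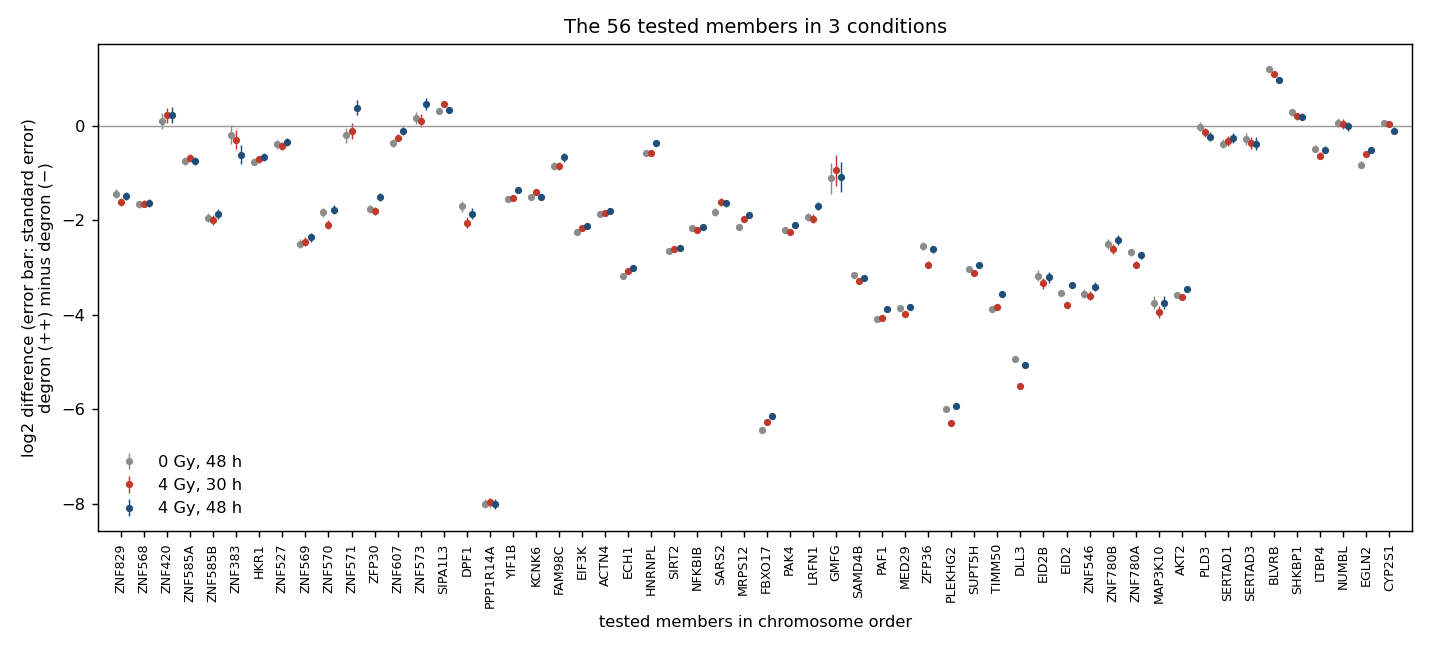
Log2 difference with its standard error (y axis) for the 56 tested members in chromosome order (x axis) at 0 Gy 48 h (grey), 4 Gy 30 h (red) and 4 Gy 48 h (blue). The 3 conditions lie close together for most members, the members from SAMD4B to AKT2 lie between −2.61 and −6.28 at 30 h, and the difference returns to near 0 at PLD3.

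Within the step, a single further division split the genes at the same place in all 3 conditions, between GMFG and SAMD4B. This division was chosen after the values were seen. The 17 members from DPF1 to GMFG had a median difference of −1.98 at 30 h and −1.86 at 48 h, which corresponded to a median 4.46-fold and 4.08-fold higher FPKM in degron (−) cells among the members above 0 in every library of that condition. The 15 members from SAMD4B to AKT2 had a median of −3.62 and −3.40, with a median 14.8-fold and 11.98-fold higher FPKM in degron (−) cells. The median level of the proximal 17 members was 14.7 to 17.2 FPKM in degron (++) and 116 to 144 FPKM in degron (−) libraries, and that of the distal 15 members was 9.61 to 11.4 and 116 to 148 FPKM. The library medians of degron (−) cells thus covered about the same range in both stretches, and those of degron (++) cells did not overlap. These medians are over different genes, and single members did not follow them. In degron (++) cells the proximal PAK4, at 28.7 to 33.1 FPKM, lay below the distal AKT2, at 38.6 to 41.4 FPKM.

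Members inside the step varied far more among themselves than their libraries did. The smallest difference was at HNRNPL, a splicing regulator, which stood at 102 to 116 FPKM in degron (++) cells and 144 to 172 FPKM in degron (−) cells and differed by −0.58 ± 0.05 (SE, adjusted p = 7.67e-06) at 30 h and −0.37 ± 0.05 (SE, adjusted p = 1.83e-04) at 48 h. It lies between ECH1, an enzyme of fatty acid oxidation that differed by −3.08 and −3.02 at 30 h and 48 h, and SIRT2, an NAD-dependent deacetylase that differed by −2.61 and −2.58. Of the 14 tested genes within the step that are no members, 11 were called lower at 30 h and 12 at 48 h. These counts stand beside 40.8% and 39.6% of all tested genes, and the step was placed on these same differences. RYR1, MAP4K1, CAPN12 and TTC9B, all called lower, passed the filter only through degron (−) libraries. Their calls were thus nearly fixed in advance and support nothing. The median of the 14 genes was −2.26 and −2.28. They include the ribosomal protein gene RPS16, the nucleolar methyltransferase gene FBL and the proteasome ATPase gene PSMC4, named here after their values were seen. These 3 differed by −3.005, −3.83 and −3.48 at 30 h. SPINT2, C19orf33 and NCCRP1 were the 3 that were not called at 30 h, with differences of −0.07, −0.05 and 0.12.

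AKT2 encodes a serine/threonine kinase of the PI3K pathway and is the last member inside the step. AKT2 measured 39.4 and 40.7 FPKM (0 Gy), 41.4 and 40.7 FPKM (4 Gy, 30 h) and 38.6 and 41.2 FPKM (4 Gy, 48 h) in degron (++) cells, against 498 and 485, 521 and 511, and 446 and 445 FPKM in degron (−) cells. All degron (−) libraries were far above all degron (++) libraries. The mean level was 12.6-fold higher in degron (−) cells at 30 h and 11.2-fold higher at 48 h, and the log2 difference was −3.62 ± 0.04 (SE, adjusted p = 2.53e-11) at 30 h and −3.45 ± 0.04 (SE, adjusted p = 2.45e-11) at 48 h. PAK4, a p21-activated kinase that acts on the actin cytoskeleton, lies in the proximal stretch. PAK4 measured 29.4 and 30.5 FPKM (0 Gy), 30.4 and 29 FPKM (4 Gy, 30 h) and 28.7 and 33.1 FPKM (4 Gy, 48 h) in degron (++) cells, against 144 and 138, 144 and 144, and 138 and 133 FPKM in degron (−) cells. Its populations did not overlap either, and the mean was 4.85-fold and 4.4-fold higher in degron (−) cells. The difference of PAK4 was −2.24 ± 0.06 (SE, adjusted p = 3.14e-09) at 30 h and −2.10 ± 0.06 (SE, adjusted p = 6.33e-09) at 48 h, smaller than that of AKT2 by more than the standard errors of both. MAP3K10, a mixed lineage kinase upstream of JNK and the member listed just before AKT2, differed by −3.94 and −3.74.

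Other signalling and cytoskeletal members included several of the largest differences of the block. PPP1R14A, an inhibitor of myosin phosphatase, was near absent from degron (++) cells. PPP1R14A measured 0.148 and 0 FPKM (0 Gy), 0 and 0.172 FPKM (4 Gy, 30 h) and 0 and 0 FPKM (4 Gy, 48 h) in degron (++) cells, against 282 and 261, 282 and 257, and 269 and 242 FPKM in degron (−) cells. With degron (++) libraries listed at 0, no fold is given, and the difference was −7.96 ± 0.10 (SE, adjusted p = 3.43e-11) at 30 h and −8.00 ± 0.10 (SE, adjusted p = 4.26e-11) at 48 h. PLEKHG2 encodes a guanine nucleotide exchange factor. PLEKHG2 measured 1.32 and 1.36 FPKM (0 Gy), 0.99 and 0.989 FPKM (4 Gy, 30 h) and 1.27 and 1.38 FPKM (4 Gy, 48 h) in degron (++) cells, against 144 and 154, 155 and 151, and 143 and 138 FPKM in degron (−) cells. It was low but detected in every degron (++) library, and its difference was −6.28 ± 0.05 (SE, adjusted p = 1.55e-11) at 30 h and −5.93 ± 0.05 (SE, adjusted p = 2.45e-11) at 48 h. DLL3, an inhibitory Notch ligand, stood at 0.367 to 1.09 FPKM in degron (++) cells and 53.9 to 65.1 FPKM in degron (−) cells and differed by −5.50 and −5.06. ACTN4, an actin cross-linking protein, was among the most abundant members. ACTN4 measured 257 and 269.7 FPKM (0 Gy), 275 and 268 FPKM (4 Gy, 30 h) and 252 and 266 FPKM (4 Gy, 48 h) in degron (++) cells, against 975 and 951, 983 and 985, and 921 and 901 FPKM in degron (−) cells. No library of either population reached the range of the other, and ACTN4 differed by −1.86 ± 0.04 (SE, adjusted p = 6.32e-10) at 30 h and −1.81 ± 0.04 (SE, adjusted p = 8.94e-10) at 48 h. NFKBIB, an inhibitor of NF-κB, differed by −2.22 and −2.14, and the weakly expressed GMFG, an actin regulator, by −0.94 and −1.08. The difference of GMFG was no longer called after quantile normalization at either time.

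FBXO17, which encodes a substrate receptor of SCF ubiquitin ligases, had, with PPP1R14A and PLEKHG2, one of the 3 most negative mean differences of the members. FBXO17 measured 0.672 and 0.668 FPKM (0 Gy), 0.833 and 0.642 FPKM (4 Gy, 30 h) and 0.585 and 0.743 FPKM (4 Gy, 48 h) in degron (++) cells, against 147 and 140.5, 130.3 and 133, and 116 and 116 FPKM in degron (−) cells. It was below 1 FPKM in every degron (++) library, and its difference was −6.26 ± 0.06 (SE, adjusted p = 2.53e-11) at 30 h and −6.14 ± 0.06 (SE, adjusted p = 2.45e-11) at 48 h. The remaining members of the step without a shared role were YIF1B, a protein of transport from the endoplasmic reticulum to the Golgi, the potassium channel gene KCNK6, FAM98C and the synaptic adhesion gene LRFN1. Their differences lay between −1.97 and −0.85 at 30 h.

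The 12 tested members with a role in transcription, RNA or translation were all called lower at both times, beside 40.8% and 39.6% of all tested genes, with a median of −3.02 at 30 h and −2.78 at 48 h. The members were listed as a run with lower expression, and 10 of these 12 lie within the step. Nothing about this role is therefore read from the counts. EIF3K, a subunit of translation initiation factor eIF3, was the most abundant member of the block. EIF3K measured 365 and 374 FPKM (0 Gy), 411 and 402 FPKM (4 Gy, 30 h) and 360.0 and 374 FPKM (4 Gy, 48 h) in degron (++) cells, against 1738 and 1797, 1798 and 1823, and 1626 and 1580.2 FPKM in degron (−) cells. Although EIF3K remained among highly expressed genes in degron (++) cells, no library approached the degron (−) range, and the difference was −2.15 ± 0.04 (SE, adjusted p = 1.71e-10) at 30 h and −2.12 ± 0.04 (SE, adjusted p = 2.41e-10) at 48 h. PAF1 is the scaffold of a complex that travels with RNA polymerase II. PAF1 measured 41.6 and 44.7 FPKM (0 Gy), 47.7 and 43 FPKM (4 Gy, 30 h) and 46 and 46.8 FPKM (4 Gy, 48 h) in degron (++) cells, against 752 and 739.7, 778 and 762, and 708 and 685 FPKM in degron (−) cells. Its mean was 17-fold and 15-fold higher in degron (−) cells, with a difference of −4.06 ± 0.05 (SE, adjusted p = 3.90e-11) at 30 h and −3.88 ± 0.05 (SE, adjusted p = 5.77e-11) at 48 h. SUPT5H, the large subunit of the elongation factor DSIF, showed the same separation. SUPT5H measured 58.9 and 60.2 FPKM (0 Gy), 65.1 and 61.2 FPKM (4 Gy, 30 h) and 65 and 69.4 FPKM (4 Gy, 48 h) in degron (++) cells, against 491 and 496, 554 and 548, and 527 and 517 FPKM in degron (−) cells. It differed by −3.11 ± 0.04 (SE, adjusted p = 4.76e-11) at 30 h and −2.94 ± 0.04 (SE, adjusted p = 7.88e-11) at 48 h.

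MED29, a subunit of the Mediator complex, differed by −3.98 and −3.84 at 30 h and 48 h and stood at 16.9 to 18.8 FPKM in degron (++) cells and 259.5 to 287 FPKM in degron (−) cells. The RNA-binding proteins SAMD4B and ZFP36, the latter a factor that promotes decay of AU-rich messages, differed by −3.29 and −3.23 and by −2.94 and −2.61. EID2 and EID2B, related inhibitors of differentiation that bind coactivators, differed by −3.78 and −3.36 and by −3.34 and −3.21. DPF1, a subunit of a neuronal chromatin remodelling complex and the first gene of the step, differed by −2.05 and −1.86. SERTAD1 and SERTAD3, transcriptional coregulators that lie after the step, had smaller differences of −0.32 and −0.25 and −0.37 and −0.38, and after quantile normalization both calls at 48 h and that of SERTAD3 at 30 h were lost.

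Of the 8 tested members with a mitochondrial or metabolic role, 6 were called lower and 1 higher at both times, beside 40.8% and 39.6% of all tested genes lower and 38.3% and 37.1% higher. As these members too were listed as part of a run with lower expression, and 5 lie within the step, nothing is read from these counts. MRPS12 encodes a protein of the small mitochondrial ribosomal subunit. MRPS12 measured 98.7 and 104 FPKM (0 Gy), 114 and 113 FPKM (4 Gy, 30 h) and 117 and 117 FPKM (4 Gy, 48 h) in degron (++) cells, against 459 and 444, 452 and 455, and 433 and 434 FPKM in degron (−) cells. The populations did not overlap, and MRPS12 differed by −1.98 ± 0.03 (SE, adjusted p = 1.63e-10) at 30 h and −1.88 ± 0.03 (SE, adjusted p = 2.65e-10) at 48 h. TIMM50, a receptor of the TIM23 protein import complex, stood at 33.4 to 39.7 FPKM in degron (++) cells and 450.2 to 546 FPKM in degron (−) cells and differed by −3.83 and −3.55. SARS2, the mitochondrial seryl-tRNA synthetase, differed by −1.62 and −1.64, and EGLN2, an oxygen-dependent prolyl hydroxylase located after the step, by −0.59 and −0.51. BLVRB, which encodes biliverdin reductase B and also lies after the step, went the other way. BLVRB measured 119.9 and 125 FPKM (0 Gy), 111 and 106 FPKM (4 Gy, 30 h) and 102 and 110.0 FPKM (4 Gy, 48 h) in degron (++) cells, against 54 and 51.4, 47.9 and 53.5, and 53.7 and 54.1 FPKM in degron (−) cells. Every degron (++) library was above every degron (−) library, with a mean 2.14-fold higher at 30 h and 1.97-fold higher at 48 h and a difference of 1.08 ± 0.06 (SE, adjusted p = 1.94e-07) at 30 h and 0.96 ± 0.06 (SE, adjusted p = 5.54e-07) at 48 h.

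**Figure D3:**
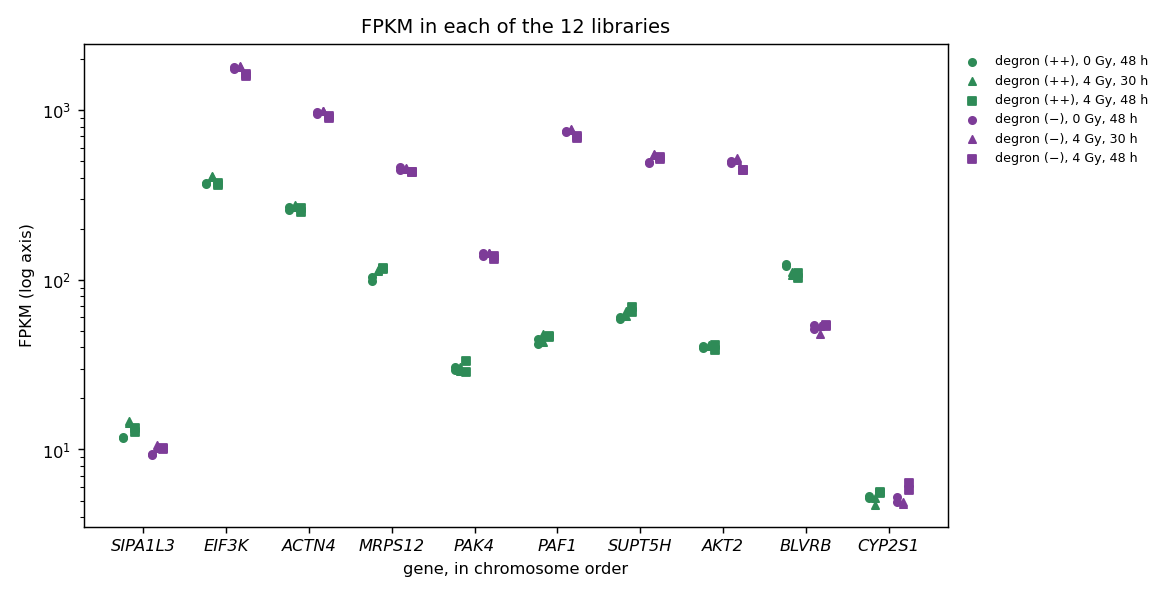
FPKM on a log axis (y axis) of 10 members in chromosome order (x axis) in each of the 12 libraries, with degron (++) libraries in green, degron (−) libraries in purple, circles for 0 Gy 48 h, triangles for 4 Gy 30 h and squares for 4 Gy 48 h. From EIF3K to AKT2 the populations are far apart, BLVRB is higher in degron (++) cells, and the libraries of CYP2S1 overlap.

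The last tested member, CYP2S1, a cytochrome P450 gene, was called at neither time. Its libraries overlapped between the populations at 0 Gy and at 30 h, whereas at 48 h both degron (++) libraries lay below both degron (−) libraries. CYP2S1 measured 5.31 and 5.21 FPKM (0 Gy), 4.71 and 5.2 FPKM (4 Gy, 30 h) and 5.5 and 5.63 FPKM (4 Gy, 48 h) in degron (++) cells, against 5.22 and 4.88, 4.78 and 4.9, and 5.8 and 6.32 FPKM in degron (−) cells. The difference was 0.03 ± 0.06 (SE, adjusted p = 0.703) at 30 h and −0.10 ± 0.06 (SE, adjusted p = 0.175) at 48 h. The remaining members after the step were SHKBP1, which regulates growth factor receptor turnover, LTBP4, which binds latent TGF-β, and NUMBL, a relative of the Notch regulator NUMB. LTBP4 was called lower at both times with −0.64 and −0.51, SHKBP1 was called higher at 30 h and not at 48 h with 0.20 and 0.19, and NUMBL was called at neither time with 0.03 and −0.02. SIPA1L3, a Rap GTPase-activating protein, is the last tested member before the step. SIPA1L3 measured 11.7 and 11.8 FPKM (0 Gy), 14.7 and 14.4 FPKM (4 Gy, 30 h) and 13.3 and 12.6 FPKM (4 Gy, 48 h) in degron (++) cells, against 9.33 and 9.38, 10.2 and 10.6, and 10.2 and 10.1 FPKM in degron (−) cells. It was slightly higher in every degron (++) library and differed by 0.45 ± 0.04 (SE, adjusted p = 1.32e-05) at 30 h and 0.33 ± 0.04 (SE, adjusted p = 1.31e-04) at 48 h, but after rescaling each library to the same FPKM sum it was no longer called at 48 h.

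Rescaling mattered for members with small differences because it moved all genes. When each library was rescaled to the same sum, which gives TPM values, the median over all tested genes went from −0.02 to −0.27 at 30 h and from −0.01 to −0.25 at 48 h. With MIR622 left out before the rescaling, that median was −0.17 at 30 h and −0.19 at 48 h. Between the scalings tried, the sign changed for ZNF420, ZNF571, ZNF573, SHKBP1, NUMBL and CYP2S1 at 30 h or 48 h and for ZNF607 at 48 h, and calls without a change of sign were lost or gained for ZNF383, ZNF527, GMFG, PLD3, SERTAD1, SERTAD3 and SIPA1L3. The other 31 members within the step kept their calls as lower under every scaling.

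Zinc finger genes made up 20 of the 60 members, and 17 of them were tested. At 30 h 13 of these 17 were called lower and none higher, and at 48 h 13 lower and 1 higher. Their median was −1.61 and −1.49. Of all tested genes, 40.8% were called lower and 38.3% higher at 30 h and 39.6% and 37.1% at 48 h. ZNF829, ZNF568, ZNF585A, ZNF585B, ZNF569, ZNF570, ZFP30 and ZNF546 passed the filter only through degron (−) libraries. Among 183 other tested zinc finger genes of chromosome 19, 54 were called lower and 76 higher at 30 h and 49 and 72 at 48 h. The median of these others was 0.16 and 0.14. The members were listed as a run with lower expression at 0 Gy and the others were not, so nothing is read from this contrast. The zinc finger members did not move as a unit, since neighbours in the proximal cluster ranged from −2.45 at ZNF569 to 0.21 at ZNF420 at 30 h. HKR1, the most abundant zinc finger member before the step, differed by −0.71 and −0.66 at 30 h and 48 h.

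ZNF829 is the first member. ZNF829 was listed at 0 in all 6 degron (++) libraries, against 1.51 and 1.91 FPKM (0 Gy), 2.1 and 2.02 FPKM (4 Gy, 30 h) and 1.87 and 1.74 FPKM (4 Gy, 48 h) in degron (−) cells. Because of the zeros no fold is given, and the difference was −1.61 ± 0.09 (SE, adjusted p = 1.98e-07) at 30 h and −1.49 ± 0.09 (SE, adjusted p = 4.45e-07) at 48 h. ZNF568 and ZNF585B were also listed at 0 in all 6 degron (++) libraries, with 1.97 to 2.30 and 2.34 to 3.09 FPKM in degron (−) cells, and so was ZNF781, which was near 0 throughout. In total 10 members were listed at 0 in at least 1 degron (++) library, and 1 member, ZNF781, was listed at 0 in degron (−) libraries. ZNF573 overlapped between the populations. ZNF573 measured 2.4 and 2.27 FPKM (0 Gy), 1.72 and 2.23 FPKM (4 Gy, 30 h) and 2.15 and 1.92 FPKM (4 Gy, 48 h) in degron (++) cells, against 1.73 and 2.22, 1.66 and 1.84, and 0.989 and 1.43 FPKM in degron (−) cells. Its difference was 0.11 ± 0.13 (SE, adjusted p = 0.457) at 30 h and 0.46 ± 0.13 (SE, adjusted p = 0.00943) at 48 h, so that it was called higher at 48 h and not at 30 h.

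Near-identical copies need care, because reads from one copy can be assigned to the other. ZNF585A and ZNF585B are such a pair. ZNF585A measured 0.82 and 0.817 FPKM (0 Gy), 0.74 and 0.905 FPKM (4 Gy, 30 h) and 0.857 and 0.907 FPKM (4 Gy, 48 h) in degron (++) cells, against 2.1 and 2.04, 1.75 and 2.1, and 2.08 and 2.22 FPKM in degron (−) cells. ZNF585B was listed at 0 in all 6 degron (++) libraries, against 2.67 and 3.04 FPKM (0 Gy), 2.89 and 3.09 FPKM (4 Gy, 30 h) and 3.005 and 2.33 FPKM (4 Gy, 48 h) in degron (−) cells. Both were lower in degron (++) cells at each time, but ZNF585A differed by −0.68 and −0.74 and ZNF585B by −2.00 and −1.87, and how reads were shared between the copies is uncertain. The pair ZNF780A and ZNF780B lies inside the step. ZNF780A measured 5.77 and 5.07 FPKM (0 Gy), 5.27 and 5.86 FPKM (4 Gy, 30 h) and 5.48 and 5.48 FPKM (4 Gy, 48 h) in degron (++) cells, against 38.6 and 41.4, 49.4 and 49.3, and 44.7 and 39.99 FPKM in degron (−) cells. ZNF780B measured 2.79 and 2.56 FPKM (0 Gy), 2.6 and 3.04 FPKM (4 Gy, 30 h) and 3.02 and 2.4 FPKM (4 Gy, 48 h) in degron (++) cells, against 18.7 and 20.8, 22.6 and 21.9, and 20.2 and 17.6 FPKM in degron (−) cells. Here both copies were far lower in degron (++) cells, with −2.94 and −2.74 and −2.61 and −2.42, and neither copy overlapped between the populations. ZNF546, the third zinc finger gene within the step, stood at 0 to 0.020 FPKM in degron (++) cells and 8.8 to 12 FPKM in degron (−) cells and differed by −3.59 and −3.40.

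Some members start back to back, on opposite strands and with a short stretch of DNA between their first bases. By the starts listed in RefSeq on assembly GRCh38.p14, 5 pairs of tested members had starts at most 500 bases apart. Both genes of each pair were called lower at both times, beside 40.8% and 39.6% of all tested genes. ZNF829, ZNF568, ZNF569 and ZNF570 passed the filter only through degron (−) libraries. The other genes of these pairs lie within the step, which was placed on these same differences. Nothing is therefore read from the calls. The differences at 30 h were −1.61 and −1.65 for ZNF829 and ZNF568 with 41 bases from start to start, −2.45 and −2.09 for ZNF569 and ZNF570 with 328 bases, −2.61 and −2.22 for SIRT2 and NFKBIB with 48 bases, −1.62 and −1.98 for SARS2 and MRPS12 with 181 bases, and −4.06 and −3.98 for PAF1 and MED29 with 272 bases. The library kit kept strand, but whether the counting used it is not given in the sources used here. If it did not, reads where the genes of a pair overlap cannot be told apart. Within these pairs the difference of the genes was 0.36 apart at the median, from 0.03 to 0.39. Across 694 such pairs of tested genes in the genome the median was 0.45 apart, and between members next to each other in the list it was 0.90 apart over 55 neighbours. Both of these sets include the 5 pairs. The closest pair, ZNF829 and ZNF568, was listed at 0 in all 6 degron (++) libraries, so its differences rest on degron (−) levels alone.

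Sequences upstream of 5 genes are shown because they stand for the genes on which the description turns. They are the shared start region of ZNF569 and ZNF570 before the step, that of PAF1 and MED29 in its distal stretch, the regions before AKT2 and PAK4, and the region shared by C19orf47 and PLD3 just beyond the distal edge. Each was read 5′ to 3′ from the RefSeq promoter table (GRCh38.p14), on the strand of the named gene and within the 250 bases before its start, leaving out bases of annotated exons. Capitals mark a CCAAT box, which reads ATTGG on the other strand, a GC box GGGCGG, which reads CCGCCC on the other strand, and a TATA box TATAAA, which reads TTTATA on the other strand. The marked motifs do not overlap each other here. The windows were chr19:37467522-37467771, plus strand, for ZNF570, chr19:39125536-39125781, plus strand, for PAK4, chr19:39391196-39391310, plus strand, for MED29, chr19:40285396-40285595, minus strand, for AKT2, and chr19:40348528-40348677, plus strand, for PLD3.
ZNF570: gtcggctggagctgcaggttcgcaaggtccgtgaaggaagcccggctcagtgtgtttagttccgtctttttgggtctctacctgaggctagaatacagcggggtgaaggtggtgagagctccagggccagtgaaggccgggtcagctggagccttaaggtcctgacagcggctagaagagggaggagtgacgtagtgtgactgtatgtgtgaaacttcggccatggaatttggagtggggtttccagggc
PAK4: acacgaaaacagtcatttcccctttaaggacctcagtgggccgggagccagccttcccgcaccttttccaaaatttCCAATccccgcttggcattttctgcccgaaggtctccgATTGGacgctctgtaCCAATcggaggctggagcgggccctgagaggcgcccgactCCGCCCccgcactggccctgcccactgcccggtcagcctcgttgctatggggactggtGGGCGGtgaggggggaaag
MED29: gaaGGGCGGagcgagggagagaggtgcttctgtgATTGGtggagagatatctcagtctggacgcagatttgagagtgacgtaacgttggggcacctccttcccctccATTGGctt
AKT2: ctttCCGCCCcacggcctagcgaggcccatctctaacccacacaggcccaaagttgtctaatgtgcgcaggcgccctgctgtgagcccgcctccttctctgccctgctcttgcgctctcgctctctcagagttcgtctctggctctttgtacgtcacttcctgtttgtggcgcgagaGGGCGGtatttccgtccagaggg
PLD3: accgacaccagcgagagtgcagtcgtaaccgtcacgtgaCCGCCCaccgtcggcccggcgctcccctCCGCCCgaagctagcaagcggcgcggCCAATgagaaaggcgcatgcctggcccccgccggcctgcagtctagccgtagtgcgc

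The window of ZNF570 held none of these motifs, that of PAK4 held 3 CCAAT and 2 GGGCGG motifs, that of MED29 2 and 1, that of AKT2 0 and 2, and that of PLD3 1 and 2, and TATAAA was in none of them. A match is a string of letters, not a bound site. The table matched 53 of the 56 tested members, with 79 promoters of 300 bases each. Among 41 promoters of members within the step, CCAAT was in 51.2%, GGGCGG in 82.9% and TATAAA in 2.44%, against 34.7%, 66.7% and 6.16% of 14517 promoters of tested genes and 34.6%, 45% and 11.5% of all 35116 promoters of the table. The 25 promoters of members before the step, most of them zinc finger genes, held GGGCGG in 32%. The ratio of observed to expected CpG had a median of 0.85 for members within the step, 0.78 for members before it, 0.79 for members after it and 0.82 for tested genes. These shares were not tested.

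Several members are single subunits of complexes whose other subunits are encoded elsewhere. Of 88 tested partner genes in 8 lists, 33 were called lower and 40 higher at 30 h and 29 and 36 at 48 h, with a median of 0.08 and 0.02. These shares lie near those of all tested genes, of which 40.8% were lower and 38.3% higher at 30 h and 39.6% and 37.1% at 48 h. Most partners lay nearer 0 than the block member of their list. The members were listed as a run with lower expression and the partners were not, so this followed from the choice and nothing is read from it. Of 12 other eIF3 subunits, 4 were called lower and 8 higher at 30 h, from −0.60 at EIF3A to 1.07 at EIF3C, which has a near-identical copy, where EIF3K was at −2.15. Of 29 other Mediator genes, 8 were called lower and 14 higher, from −0.59 at MED18 to 1.29 at MED9, where MED29 was at −3.98. Of 9 other TIM23 genes, 3 were called lower and 3 higher, from −1.18 at TIMM21 to 0.52 at TIMM44, where TIMM50 was at −3.83.

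**Figure D4:**
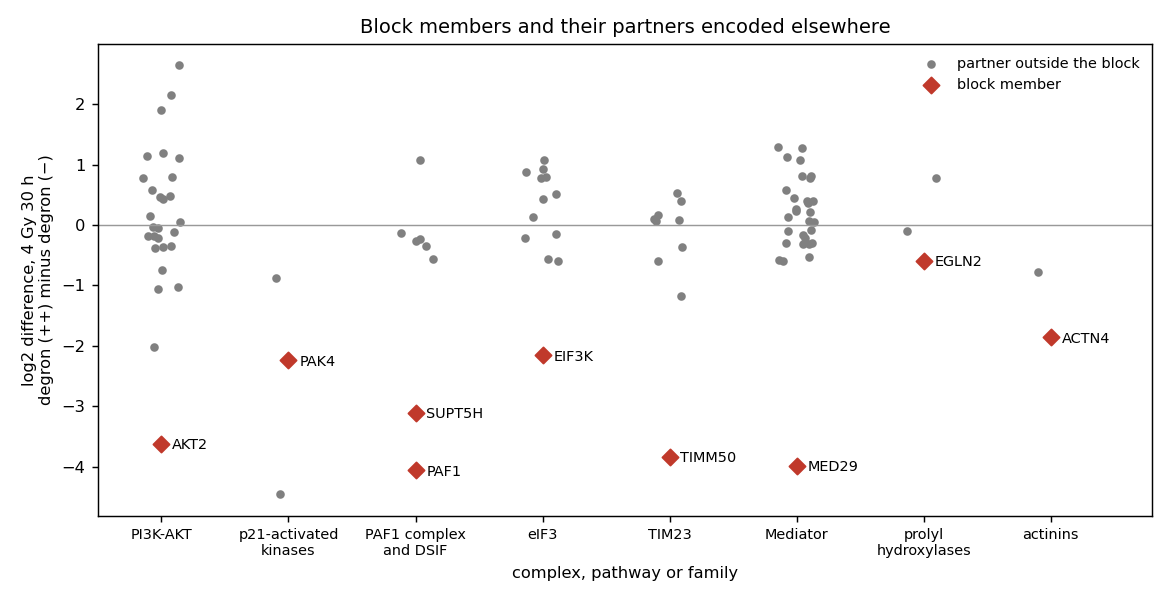
Log2 difference at 4 Gy and 30 h (y axis) of block members (red diamonds) and of the tested genes encoded elsewhere that belong to the same complex, pathway or family (grey points), by list (x axis). EIF3K, TIMM50, MED29, PAF1, SUPT5H, PAK4, AKT2 and ACTN4 lie at or below −1.86 and EGLN2 lies at −0.59. The partners of EIF3K, MED29 and TIMM50 lie between −1.18 and 1.29. The members, unlike the partners, were listed as a run with lower expression.

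For PAF1 and SUPT5H, the 6 partners ranged from −0.56 at CTR9 to 1.07 at SUPT4H1, the small subunit of DSIF. In the PI3K pathway, 10 of 27 partners were called lower and 13 higher at 30 h, beside 40.8% and 38.3% of all tested genes. AKT1, a paralog of AKT2, differed by −0.75, whereas FOXO1, a transcription factor inhibited by AKT, differed by 2.14. PIK3CD, a catalytic subunit of PI3K, had the lowest value among these partners at −2.02. The p21-activated kinase genes were an exception, as PAK1, encoded on another chromosome, differed by −4.45, a more negative value than that of PAK4, while PAK2 differed by −0.88. The actinin gene ACTN1 differed by −0.77, and of the prolyl hydroxylase genes EGLN1 differed by −0.09 and EGLN3 by 0.77.

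Few members changed with irradiation or time. Between 4 Gy and 0 Gy at 48 h, 1 of the 56 members was called in each population, FBXO17 lower in degron (−) cells and MRPS12 higher in degron (++) cells, where 0.873% of all tested genes were called lower and 3.85% higher in degron (−) cells, and 0.402% lower and 1.42% higher in degron (++) cells. FBXO17 moved by −0.31 ± 0.06 (SE, adjusted p = 0.033) and MRPS12 by 0.21 ± 0.03 (SE, adjusted p = 0.0253), both small beside their differences between the populations. No member was called in the test of whether the difference between the populations changed with dose, although 11 of 56 had an unadjusted p under 0.05, as did 13.6% of all tested genes. That contrast was called lower in 0.0541% and higher in 0.0232% of all tested genes. Neither single call, of FBXO17 or of MRPS12, held when any 1 of the libraries compared was left out.

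From 30 h to 48 h after 4 Gy, 4 members were called lower and 1 higher in degron (−) cells, where 1.17% and 6.01% of all tested genes were called. EID2 moved by −0.29 ± 0.06 (SE, adjusted p = 0.0256), TIMM50 by −0.24 ± 0.05 (SE, adjusted p = 0.0236), AKT2 by −0.21 ± 0.04 (SE, adjusted p = 0.0116), and EIF3K by −0.18 ± 0.04 (SE, adjusted p = 0.0236). CYP2S1 was the member that rose, by 0.27 ± 0.06 (SE, adjusted p = 0.0391). These calls rested on few libraries, since 0 members were called without degron (−) 4 Gy 30 h replicate 1 or without degron (−) 4 Gy 48 h replicate 2. In degron (++) cells no member was called by this limma test, with 8 of 56 members at an unadjusted p under 0.05, as were 15.8% of all tested genes, and 0.548% of all tested genes were called lower and 0.657% higher. The difference between the populations became smaller from 30 h to 48 h in 3 members, DLL3, EID2 and PLEKHG2, by 0.44 ± 0.09 (SE, adjusted p = 0.037), 0.42 ± 0.09 (SE, adjusted p = 0.0363) and 0.35 ± 0.07 (SE, adjusted p = 0.0314) on the log2 scale, where 0.51% of all tested genes were called in that direction and 2.72% in the other.

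The libraries behind these interactions can be read side by side. DLL3 measured 1.02 and 1.09 FPKM (0 Gy), 0.443 and 0.367 FPKM (4 Gy, 30 h) and 0.692 and 0.735 FPKM (4 Gy, 48 h) in degron (++) cells, against 60.9 and 61.9, 65.1 and 60.3, and 58.9 and 53.9 FPKM in degron (−) cells. EID2 measured 10.4 and 11.4 FPKM (0 Gy), 9.61 and 9.81 FPKM (4 Gy, 30 h) and 10.2 and 11.4 FPKM (4 Gy, 48 h) in degron (++) cells, against 136 and 138, 148 and 145, and 124 and 116 FPKM in degron (−) cells. TIMM50 measured 33.4 and 34.3 FPKM (0 Gy), 38.1 and 35.5 FPKM (4 Gy, 30 h) and 36 and 39.7 FPKM (4 Gy, 48 h) in degron (++) cells, against 508 and 512, 546 and 528, and 457 and 450.2 FPKM in degron (−) cells. In degron (−) cells both 30 h libraries of each of these genes lay above both 48 h libraries, and in degron (++) cells both 30 h libraries of DLL3 and EID2 lay below both 48 h libraries. TIMM50 overlapped between the times in degron (++) cells, and its change in difference was not called (adjusted p = 0.0729).

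Runs of neighbours elsewhere with lower expression in degron (++) cells had less negative medians than the listed members. The 41 tested genes from SNN to ERI2 on chromosome 16 had a median of −0.98 at 30 h and −0.93 at 48 h, and the 41 tested genes from USP45 to TRAF3IP2 on chromosome 6 had a median of −1.17 and −0.95, compared with −1.91 and −1.73 for all 56 tested members. The sets are unlike, because these 2 runs hold every tested gene between their ends and the member list does not. The 23 other tested genes between ZNF829 and CYP2S1 had a median of −0.83 at 30 h and −1.60 at 48 h. These runs were also chosen for their differences, so the values are given side by side without a test.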

How the data were processed

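RNA sequencing of 12 PANC-1 libraries was deposited by the authors as 1 table of FPKM per library, a level normalized for gene length and for mapped fragments. The submitters' processing notes name TopHat2 2.1.1, Bowtie2 2.2.8, SAMtools 0.1.18, Cuffdiff 2.2.1 and the genome build hg19, without a role or an order. No counts were analysed, so depth and counting error are unknown. Groups of 2 libraries were taken from the labels. The fit took genes at 1 FPKM or more in 2 or more libraries, on the log2(FPKM + 1) scale, with limma 3.58.1 (R 4.3.3, trend, 6 group means, all 12 libraries), and p-values were adjusted by Benjamini-Hochberg over all 12946 genes. A pseudocount of 1 understates the change of weakly expressed genes. The step was placed by least squares over the genes of chromosome 19 in RefSeq order on GRCh38.p14. As the files use hg19, that assembly served only for gene order and promoter sequences, and no coordinate was carried over.

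The members, gene lists, marker genes and comparisons were chosen with earlier results of these data known. Values in every library are given for AKT2, PAK4, the first and last tested members, the 3 members lowest and the 3 highest in mean difference after 4 Gy, the 5 most abundant, the near-identical zinc finger pairs and members called for dose, time or their interaction. Same-numbered libraries did not deviate together (correlation −0.0381 to 0.122 over 15 pairs of groups), so the numbers were not taken to pair them. For 1 partner gene, counted in its list, no value of its own is reported here. The fit was tested on simulated data. Alternatives were another pseudocount, filter, scaling, variance model, a replicate block, fits on the compared libraries alone and leaving out each library. A TPM scaling without MIR622, the division of the step and a quantile normalized step were added after the data were seen. Figures were drawn with Python 3.11.15 and matplotlib 3.10.9.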

Additional observations from a re-analysis of the deposited data

Results flagged for a closer look

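In 3 members the difference between the populations changed from 30 h to 48 h after 4 Gy by limma's test of the interaction, in each case towards a smaller difference. For DLL3 the interaction was 0.44 (log2 scale, adjusted p = 0.037), for EID2 0.42 (adjusted p = 0.0363) and for PLEKHG2 0.35 (adjusted p = 0.0314). DLL3 differed between the populations by −5.50 at 30 h and −5.06 at 48 h, EID2 by −3.78 and −3.36, and PLEKHG2 by −6.28 and −5.93. All 3 lie in the distal stretch from SAMD4B to AKT2, whose 15 members had a median interaction of 0.19, against −0.01 over all tested genes. None of the 3 was called with the replicate number as a block or after rescaling to TPM, and 0 to 2 of them were called when 1 library was left out.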

How the results depend on the processing

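The calls of members within the step other than GMFG held under every scaling tried. The median log2 difference of the members at 0 Gy 48 h, 4 Gy 30 h and 4 Gy 48 h was −2.21, −2.26 and −2.15 with a pseudocount of 0.1, −2.20, −2.22 and −2.12 with a filter of 5 FPKM, −1.69, −1.80 and −1.61 after quantile normalization, −2.06, −2.20 and −2.02 as TPM and −2.17, −2.24 and −2.09 as TPM without MIR622. Leaving out 1 library at a time gave −1.86 to −1.80, −1.91 to −1.87 and −1.78 to −1.71. The level inside the step was −3.04, −2.54 and −2.97 with a pseudocount of 0.1, −2.99, −2.95 and −2.95 with a filter of 5 FPKM, −3.09, −3.10 and −3.10 as TPM, and −3.11, −3.08 and −3.14 as TPM without MIR622. With absolute errors it was −2.93 at 0 Gy and −2.97 at 4 Gy 30 h. With a pseudocount of 0.1 the step at 30 h held 87 genes. The runs on chromosomes 16 and 6 then had medians of −1.18 and −1.37 at 30 h and −1.17 and −1.25 at 48 h.

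Members called higher were 5 at both times after quantile normalization and 1 at 48 h as TPM, and 2 at 30 h and 2 to 4 at 48 h without 1 library. Members called lower were 43 to 45 and 42 to 45 without 1 library. After quantile normalization 30 other zinc finger genes of chromosome 19 were called lower at 48 h, and as TPM 46 partners were.

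Calls for dose and time depended on the setting. In degron (++) cells the dose gave 2 calls with a pseudocount of 0.1 and 0 without the variance trend, with only the libraries compared or without 1 library. In degron (−) cells it gave 3 after quantile normalization and 0 with a pseudocount of 0.1, the replicate block, only the libraries compared, TPM without MIR622 or without 1 library. Time gave 2 calls in degron (++) cells with a pseudocount of 0.1 and 0 to 1 without 1 library. In degron (−) cells it gave 0 with only the libraries compared, 3 as TPM without MIR622 and 0 to 3 without 1 library. The interaction with time gave 1 call without a filter, after quantile normalization or as TPM without MIR622, and 0 as TPM, with the replicate block, with only the libraries compared, and 0 to 2 without 1 library.

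CYP2S1 changed sign at 30 h to −0.21 as TPM, −0.11 as TPM without MIR622 and −0.030 without degron (++) 4 Gy 30 h replicate 2 (−0.030 to 0.086 over single libraries left out), and at 48 h to 0.0043 after quantile normalization. ZNF573 at 30 h changed to −0.081 as TPM and −0.016 without the same library (−0.016 to 0.23). The cause was not tested. The numbers do not pair the libraries, and with the replicate block 46 members were called lower and 2 higher at 30 h and 46 and 4 at 48 h, by the loss of SHKBP1 and SERTAD1 and the gain of ZNF571. With 2 libraries a group and no read counts, small differences of weakly expressed members are limited in precision.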

Other observations

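After AKT2 in the order of gene starts, the block also holds 9 tested genes that are no members, and they did not move together. At 4 Gy and 30 h the splicing factor gene SNRPA differed by 0.47, the mitochondrial kinase-like gene ADCK4 by 0.54 and the inositol trisphosphate kinase gene ITPKC by 0.45, with mean levels of 71.6, 9.92 and 6.14 FPKM in degron (++) cells and 51.4, 6.55 and 4.23 FPKM in degron (−) cells. By limma's test these were called higher (adjusted p = 1.16e-05, 0.00381 and 1.16e-04). C19orf54, at 0.27, was also called higher by this test (adjusted p = 0.00901). RAB4B went the other way with a difference of −0.83 (adjusted p = 1.25e-04). MIR641, C19orf47 and PRX, at −0.65, −0.11 and −0.03, were not called. MIA differed by −2.66, from a mean of 0 FPKM in degron (++) and 5.39 FPKM in degron (−) cells. MIA passed the filter only through degron (−) libraries, so its call as lower was nearly fixed in advance and supports nothing. Of all tested genes, 40.8% were called lower and 38.3% higher at 30 h.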
